A study of Homo sapiens with 5 samples.

Results

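NEDD4L and its 8 relatives, NEDD4, ITCH, WWP1, WWP2, SMURF1, SMURF2, HECW1 and HECW2, form the NEDD4 family of ubiquitin ligases. Their transcripts were read in 5 populations of MIAPaCa2 cells, a line from a poorly differentiated human pancreatic ductal adenocarcinoma. All probe sets that the platform annotation maps to 1 of these 9 genes alone were taken, which gave 34 of the 54613 probe sets on the array, 6 of them for NEDD4L. The family was chosen by the NEDD4L values on these same arrays, so those values are given as a description.

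Each NEDD4 family ligase joins a lipid-binding C2 domain, several WW domains and a catalytic HECT domain. The WW domains hold proteins that carry a short proline and tyrosine (PY) motif, either the substrate itself or an adaptor, and the HECT domain passes ubiquitin to the substrate. NEDD4L is best known for drawing the epithelial sodium channel from the cell surface, a step that the kinase SGK1 blocks by creating a site for 14-3-3 proteins. It also acts on activated SMAD2 and SMAD3, the transcription factors of transforming growth factor-β signalling, and the 2 SMURF ligases act on SMADs and their receptors.

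One Affymetrix array was made for each population, so there was no replicate, no spread and no test, and each difference compares 2 arrays. MP2-mock cells, kept in standard culture with a selection drug, carried no integrin construct by label. MP2-α2/TC cells, and likewise MP2-α2/CI cells, expressed the human α2 integrin subunit, which binds collagenI, from a single original panning, and were maintained in standard culture or on collagenI coated at 25 µg/mL, respectively. MP2-α2Δ cells carried an α2 subunit that lacks the cytoplasmic domain, also on collagenI, with zeocin as the selection drug, as for the α2 populations. MP2-α9α2 cells carried a chimera of the α9 and α2 subunits that retains the α2 cytoplasmic domain, and were kept in G418 on the tenascin FNIII domain at 10 µg/mL. Construct, substrate and drug therefore differed together between several pairs and cannot be told apart. All were stable populations, not clones, harvested before confluence. The deposited values are on a scale read as log2. The first 3 arrays shared a minimum of 2.24 and the MP2-α2Δ and MP2-α9α2 arrays a minimum of 2.21, and they were taken as 2 sets normalized apart.

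The background level of an array, its floor, was set by 107 probe sets of odorant receptors at their 95th percentile, which gave values of 2.21 to 2.27 and between 28665 and 30717 probe sets above them. Lower values were raised to the floor before differences were taken. The epithelial keratins KRT8 and KRT18 read 14.18 or higher on every array, while the junction genes CDH1 and EPCAM lay at the minimum. KRT7, a further keratin among the 6 epithelial markers, was not above the floor on the MP2-mock, MP2-α2/CI and MP2-α9α2 arrays. KRT19, a ductal keratin, read 11.74 to 12.11 in the first set and 12.99 and 12.75 in the second by 201650_at. Of 4 mesenchymal markers, the filament gene VIM read 15.48 or higher by 201426_s_at and the transcription factor ZEB1 10.12 to 11.09 by 212764_at, while CDH2 and FN1 lay at or near the minimum. Of 5 fibroblast markers, 2 had a probe set above the floor in each pair of the first set. In MP2-α2Δ over MP2-α9α2 cells 3 did, so DCN, LUM and PDGFRB were not all at the minimum there. The collagen gene COL1A2 read 11.97 to 13.08 by 202403_s_at. The leukocyte gene PTPRC lay at the minimum. Of 4 blood markers measured, 3 had a probe set above the floor in MP2-α2/TC over MP2-mock cells. In MP2-α2Δ over MP2-α9α2 cells 1 did. Summed over its 9 probe sets, the blood list stood at 5.48 to 5.61 on the log2 scale. As the study describes it, the α2 construct lacks the transcript end that the array reads, so ITGA2 gives no check of it. The study also reports that its array analysis detected no α2 in any of the cells. The ITGA2 probe set 227314_at lay at the minimum on 4 arrays and read 7.28 on the MP2-α2Δ array. Its other probe set, 205032_at, read 3.28 on that array, 2.21 in MP2-α9α2 cells and 2.24 in the first set. The source of the MP2-α2Δ signal was not tested. All ITGA9 probe sets lay at the minimum.

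Several transcription starts are annotated for NEDD4L. RefSeq windows of 250 bases before to 50 after a start (GRCh38.p14) were used for 8 of the 9 genes. WWP1 was left out of the windows used here, so the statements on member windows do not cover it. There were 17 windows in all, of which NEDD4L had 5, all on the plus strand of chromosome 18. The 2 windows printed here are shown because they hold the E-box CACCTG, a sequence known to be bound by ZEB and SNAI repressors, more than once. Capitals mark CACCTG on either strand.

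NEDD4L, chr18:58149070-58149369, plus strand: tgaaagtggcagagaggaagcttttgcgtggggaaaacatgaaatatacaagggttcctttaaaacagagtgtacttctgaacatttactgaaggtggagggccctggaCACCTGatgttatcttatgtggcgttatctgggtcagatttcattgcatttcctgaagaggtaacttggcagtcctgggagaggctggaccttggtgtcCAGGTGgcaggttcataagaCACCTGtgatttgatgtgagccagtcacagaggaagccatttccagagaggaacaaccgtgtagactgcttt

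NEDD4L, chr18:58195155-58195454, plus strand: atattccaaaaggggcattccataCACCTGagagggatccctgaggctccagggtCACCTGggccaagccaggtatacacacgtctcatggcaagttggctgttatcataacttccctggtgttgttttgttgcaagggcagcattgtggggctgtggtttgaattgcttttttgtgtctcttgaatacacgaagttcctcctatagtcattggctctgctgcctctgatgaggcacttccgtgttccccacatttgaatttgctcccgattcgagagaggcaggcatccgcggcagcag

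The first window holds 3 copies of CACCTG and the second 2, with no overlap between copies. Of all 35116 windows in the RefSeq table, 20.6% hold the motif and 3.49% hold it at least 2 times. Among the other member windows, 1 of WWP2 holds it 2 times and those of ITCH and SMURF2 once each, so it was not particular to NEDD4L. Over its 5 windows NEDD4L had a GC content of 39.7% to 51%, against a median of 58.7% over all windows. The GC box GGGCGG, searched on both strands, was in 45.0% of all windows and in none of the 5 NEDD4L windows. The single SMURF1 and SMURF2 windows had GC contents of 81.7% and 79.3% and each held GGGCGG. The TATA motif TATAAA, in 11.5% of all windows, was in 1 WWP2 window and in no other member window. The AP-1 motif TGANTCA, in 7.71% of all windows, was in 2 overlapping NEDD4 windows and 1 NEDD4L window. These are matches of letters, and binding was not measured.

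NEDD4L was higher in both α2 populations than in MP2-mock cells by 4 of its 6 probe sets. Probe set 212445_s_at read 6.64 in MP2-mock, 8.82 for MP2-α2/TC, then 8.17 for MP2-α2/CI cells, and 5.29 and 7.93 in MP2-α2Δ and MP2-α9α2 cells. On this probe set the highest array was MP2-α2/TC and the lowest MP2-α2Δ. Probe set 241396_at read 4.56 on the MP2-mock array, 6.62 with MP2-α2/TC, 6.17 with MP2-α2/CI, and 2.28 on both other arrays. The last value is above their floor but within 0.1 of it, so this probe set read well above the floor only in the first set of arrays. Probe set 212448_at read 5.04 in MP2-mock, 5.84 for MP2-α2/TC, then 5.78 for MP2-α2/CI cells, 3.83 and 7.35 in MP2-α2Δ and MP2-α9α2 cells. Probe set 226974_at read 2.39, 3.58 and 3.47 in the same first 3 populations, 4.27 and 6.12 on the MP2-α2Δ and MP2-α9α2 arrays. The 4 probe sets thus shared the order MP2-α2/TC, MP2-α2/CI, MP2-mock within the first set, and 3 of them were higher in MP2-α9α2 than in MP2-α2Δ cells. They did not share the place of MP2-α2Δ cells, which were lowest by 212445_s_at and 212448_at but above MP2-mock by 226974_at. The remaining probe sets carried little signal. Probe set 236490_at read 2.53 on the first 3 arrays and 2.92 on the other two, and 237498_at lay at the minimum on all 5.

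**Figure D1:**
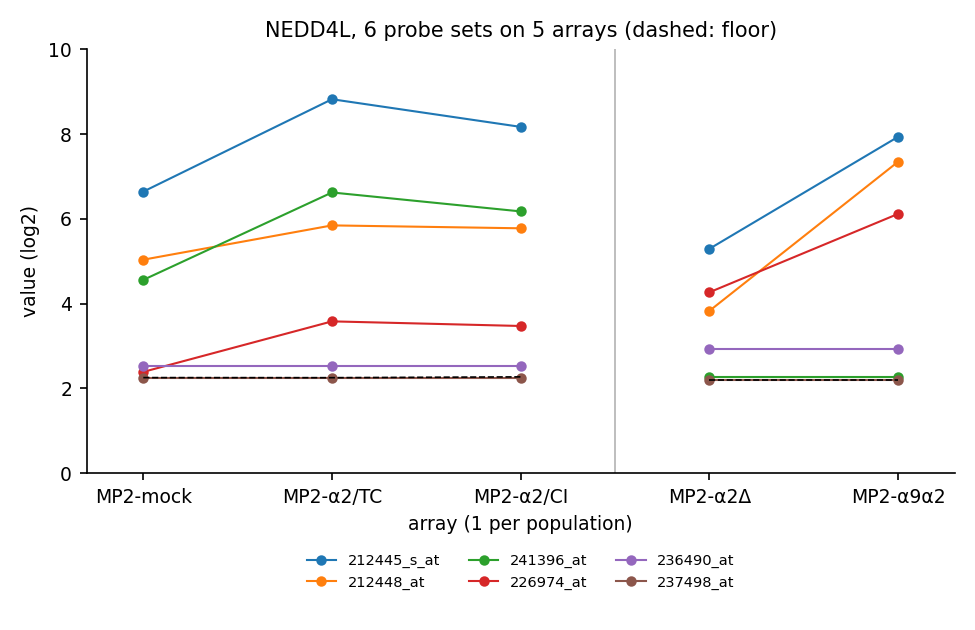
NEDD4L values (y axis, log2 scale) for its 6 probe sets by array (x axis, 5 arrays), a point standing for 1 array, with the floors dashed and a grey line between the 2 sets of arrays. Probe set 212445_s_at lies at 6.64 in MP2-mock, 8.82 for MP2-α2/TC, then 8.17 for MP2-α2/CI cells, and at 5.29 and 7.93 in MP2-α2Δ and MP2-α9α2 cells.

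Ectopic α2 in standard culture was compared with mock selection first. NEDD4L was higher in MP2-α2/TC than MP2-mock cells by 2.18 on the log2 scale (4.53-fold) for 212445_s_at, 2.06 (4.18-fold) for 241396_at, 1.19 (2.28-fold) for 226974_at and 0.81 (1.75-fold) for 212448_at. The difference for 236490_at was 0. All values of 226974_at in the first set lay under 4, so that with a floor of 4 only 2 NEDD4L probe sets were 2-fold higher in either α2 population. Of the 29885 probe sets above the floor on either array, 212445_s_at and 241396_at were numbers 6 and 7 counted from the largest increase. Of the 29 family probe sets above the floor, 3 were at least 2-fold higher and 0 lower, against 0.214% higher and 0.248% lower over all probe sets tested. All 3 were NEDD4L probe sets, the gene by which the family was chosen. The median difference was 0.025 over the family and 0 over all probe sets. In these bulk values a change in the share of cells with a transcript and a change in its amount per cell cannot be told apart.

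Cells with α2 kept on collagenI gave a similar picture at smaller sizes. NEDD4L in MP2-α2/CI exceeded MP2-mock cells by 1.62 (3.06-fold) for 241396_at, 1.53 (2.88-fold) for 212445_s_at, 1.08 (2.12-fold) for 226974_at and 0.74 for 212448_at on the log2 scale. In this pair 3 of 29 family probe sets reached 2-fold upward and 0 downward, again all of NEDD4L, against 0.236% and 0.256% of the 29696 tested. The pair shares the MP2-mock array with the one before, so they are not independent. Between the α2 populations, NEDD4L was lower on collagenI by 0.65 for 212445_s_at and 0.45 for 241396_at. None of the 29 family probe sets reached 2-fold in that pair, where 0.0335% of all probe sets tested were higher on collagenI and 0.104% lower.

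Between the deletion construct and the chimera, the largest differences in the family were those of NEDD4L. For 212448_at the value in MP2-α2Δ was below that in MP2-α9α2 cells by 3.52 on the log2 scale, an 11.5-fold difference and number 30 counted from the largest decrease among 30975 probe sets. The difference for 212445_s_at was -2.64 (6.24-fold) and for 226974_at -1.85 (3.61-fold), while those for 241396_at and 236490_at were 0. Of 27 family probe sets above the floor, 0 were 2-fold or more above and 4 below in MP2-α2Δ cells, against 7.56% and 4.95% over all probe sets. The fourth was 210200_at of WWP2, which read 4.59 and 5.99 in MP2-α2Δ and MP2-α9α2 cells, a difference of -1.40. Median differences were 0 for the family and 0 for all. In the same pair 1 of 6 mesenchymal marker probe sets above the floor was 2-fold lower, 210875_s_at of ZEB1 at -1.10, and their median difference was -0.53. Summed over its probe sets, the mesenchymal list stood at 15.6 and 15.9 on the log2 scale in MP2-α2Δ and MP2-α9α2 cells and at 15.5 to 15.6 in the first set. The fibroblast list, mainly COL1A2, stood at 13.2 and 13.6, against 12.5 to 12.8 in the first set. Their part in the NEDD4L differences was not tested.

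**Figure D2:**
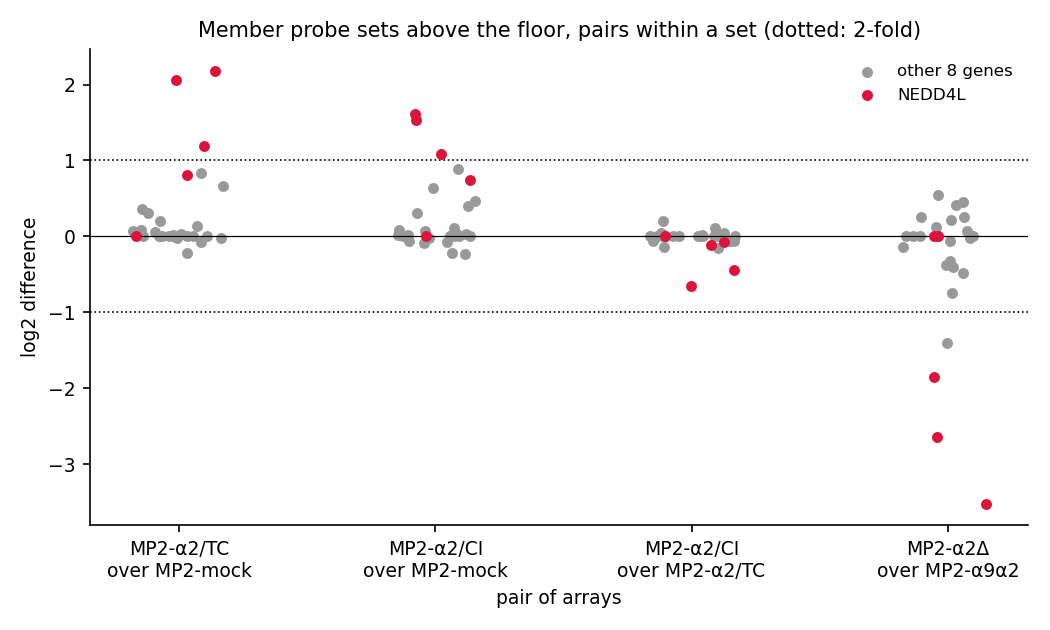
Log2 differences (y axis) of the family probe sets above the floor for the 4 pairs of arrays within a set (x axis), 1 point per probe set spread sideways for visibility, NEDD4L in red and the other 8 genes in grey, with 2-fold dotted. In both α2 pairs against MP2-mock the points beyond 2-fold are NEDD4L, and in MP2-α2Δ over MP2-α9α2 they are 3 of NEDD4L and 1 of WWP2.

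NEDD4, the founding member and closest relative of NEDD4L, had 1 probe set. It read 7.80 in MP2-mock, 7.89 for MP2-α2/TC, then 7.91 for MP2-α2/CI cells, and 8.42 and 9.17 on the MP2-α2Δ and MP2-α9α2 arrays. The first 3 values lay within 0.12 of each other. In MP2-α2Δ cells it was below MP2-α9α2 by 0.75 on the log2 scale, in the same direction as NEDD4L but under 2-fold.

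ITCH, a ligase for JUN proteins and regulator of lymphocyte activation, was above the floor by all 6 probe sets. Within the first set they moved by at most 0.47, the value for 235057_at in MP2-α2/CI over MP2-mock cells. That probe set read 5.20 in MP2-mock, 5.56 for MP2-α2/TC, then 5.67 for MP2-α2/CI cells, and 6.89 and 6.77 in MP2-α2Δ and MP2-α9α2 cells. Probe set 209743_s_at read 7.94 on each of the first 3 arrays, 8.12 and 7.86 in MP2-α2Δ and MP2-α9α2 cells.

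WWP1, which targets Krüppel-like factors and other regulators, showed the largest movement in the first set outside NEDD4L. Its probe set 212637_s_at read 4.38 in MP2-mock, 5.22 for MP2-α2/TC, then 5.26 for MP2-α2/CI cells, and 7.88 and 7.94 on the MP2-α2Δ and MP2-α9α2 arrays. The differences from MP2-mock were 0.84 and 0.88 on the log2 scale, just short of 2-fold. Its other probe set, 212638_s_at, moved the same way by 0.31 and 0.30. WWP2, a ligase for SMADs, read 8.36, 8.36 and 8.41 by 204022_at in the first 3 populations, and 9.31 and 9.71 in MP2-α2Δ and MP2-α9α2 cells.

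SMURF2, which acts on SMADs and on transforming growth factor-β receptors through SMAD7, was also higher in both α2 populations, by at most 0.67. Its probe set 232020_at read 6.27 in MP2-mock, 6.94 for MP2-α2/TC, then 6.91 for MP2-α2/CI cells, and 9.99 and 10.00 in MP2-α2Δ and MP2-α9α2 cells. Probe set 205596_s_at read 12.24 to 12.38 in the first set and 13.16 and 13.30 in the second. SMURF1, a ligase for SMAD1, SMAD5 and RHOA, went slightly the other way by 212666_at, which read 8.90 in MP2-mock and 8.69 in both α2 populations. The lowest SMURF1 difference in the first set was -0.23, for 215458_s_at in MP2-α2/CI over MP2-mock cells. By 212666_at SMURF1 read 10.53 and 10.91 in the second set. HECW1 and HECW2, known mainly from neural tissue, had 1 probe set each above the floor on any array. These were 215584_at of HECW1, at no more than 2.31, and 232080_at of HECW2, at 3.36 in the first set and 3.70 in the second. In all, 29 of the 34 family probe sets lay above the floor on some array and 27 on all 5, and the 5 that never did were 2 each of HECW1 and HECW2 and 1 of NEDD4L.

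**Figure D3:**
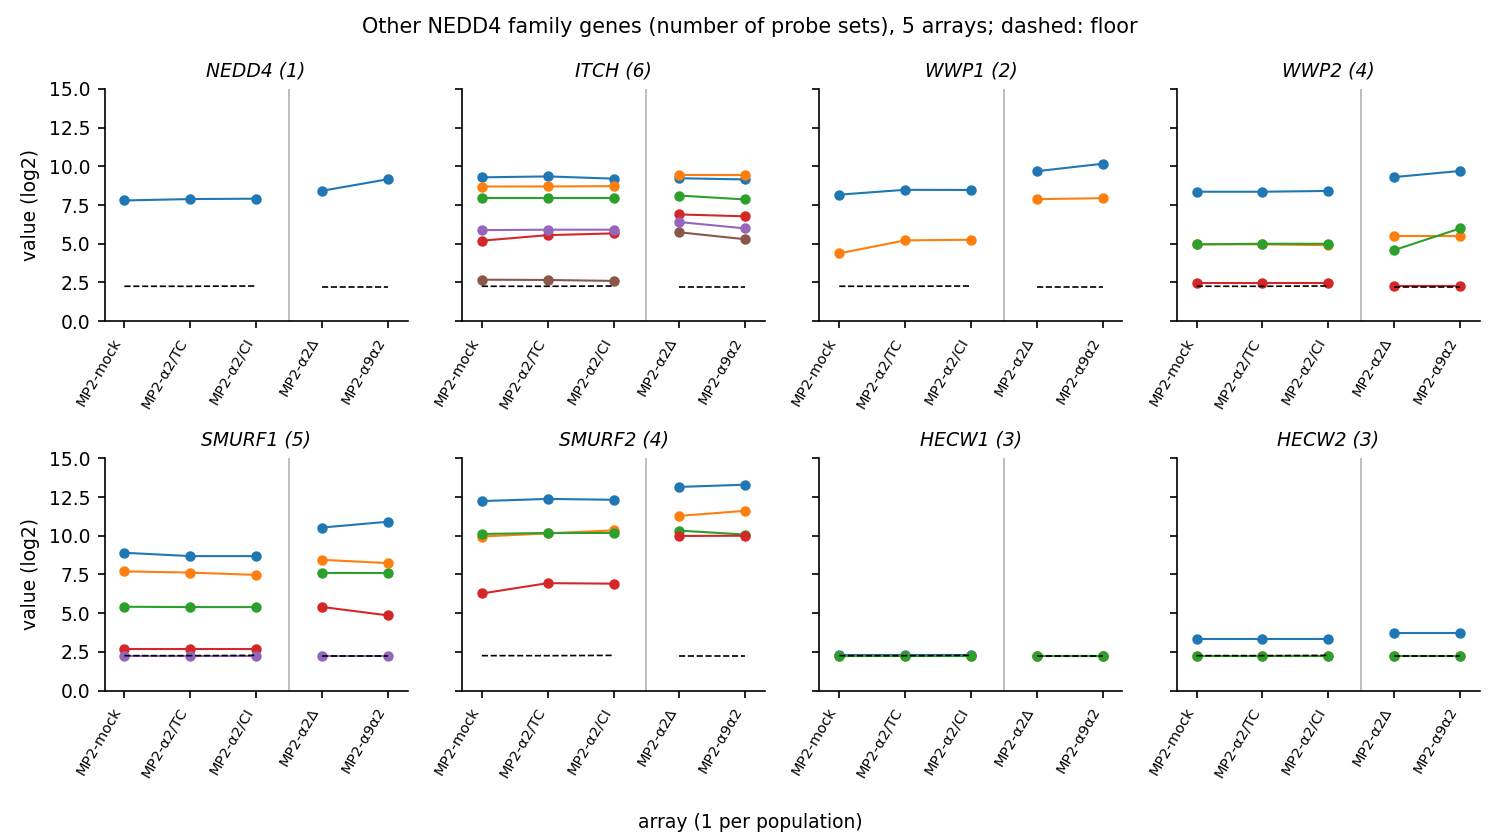
Values (y axis, log2 scale) of the other 8 family genes on the 5 arrays (x axis), 1 panel per gene, 1 colour per probe set within a panel, floors dashed and a grey line between the 2 sets of arrays. Within the first set the lines are nearly level, the widest being WWP1 at 4.38, 5.22 and 5.26, and HECW1 lies at or near the floor, while 1 HECW2 probe set lies above it at 3.36 and 3.70.

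Levels in the second set of arrays were generally higher, and this was not particular to the family. For the 27320 probe sets with values above every array's floor, the median was 6.88 to 6.89 in the first set and 7.72 and 7.69 on the MP2-α2Δ and MP2-α9α2 arrays. Of the probe sets that separated MP2-α2Δ from MP2-mock by 2-fold or more, 81.7% were higher in MP2-α2Δ cells as deposited, 35.7% after each array was centred on its median, and 49.9% after quantile normalization. For MP2-α9α2 against MP2-mock these shares were 76.9%, 39.7% and 51.2%. Comparisons across the sets are therefore given on more than one scale.

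In MP2-α2Δ against MP2-mock cells, 10 of 29 family probe sets were at least 2-fold higher as deposited, and 3 lower, against 30.2% and 6.77% of all. After quantile normalization 6 were higher and 4 lower, against 15.1% and 15.1%. NEDD4L was lower in MP2-α2Δ cells by 212445_s_at, at -1.35 as deposited, -2.19 centred and -2.18 after quantile normalization. It was lower by 212448_at too, at -1.21, -2.05 and -1.86 on the same 3 scales, and by 241396_at at -2.28, -3.12 and -2.57. By 226974_at it was higher, at 1.88, 1.04 and 1.51. The values for these last 2 probe sets rest on readings near background, 2.28 in MP2-α2Δ cells for 241396_at and 2.39 in MP2-mock cells for 226974_at. With a floor of 4 they were -0.56 and 0.27, under 2-fold, while 212445_s_at kept -1.35 and 212448_at gave -1.04.

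For MP2-α9α2 over MP2-mock cells, 16 of 29 family probe sets as deposited were 2-fold or more higher and 1 lower, against 31.7% and 9.52%, and 10 and 1 after quantile normalization, against 18.2% and 17.4%. NEDD4L was higher by 226974_at at 3.73 as deposited, 2.92 centred and 3.24 after quantile normalization, and by 212448_at at 2.31, 1.51 and 1.47. By 212445_s_at it was 2-fold higher only as deposited, at 1.29, with 0.49 and 0.48 on the other scales. The 1 lower probe set was 241396_at of NEDD4L, at -2.28, -3.09 and -2.57, and with a floor of 4 it was no longer 2-fold lower, at -0.56. The same floor gave 2.12 for 226974_at. MP2-α2Δ against MP2-α2/CI cells, both on collagenI, gave 8 higher and 3 lower of 28 as deposited, against 30.3% and 6.6%, and 6 and 4 after quantile normalization, against 14.5% and 14.7%. The 3 lower as deposited were all of NEDD4L, at -2.88 for 212445_s_at, -1.95 for 212448_at and, with a floor of 4 in place of the values near background, -2.17 for 241396_at, whereas 226974_at stood at 0.80 as deposited, -0.04 centred and 0.23 after quantile normalization. These 3 pairs share arrays with each other.

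Outside NEDD4L, the largest values across the sets were those of WWP1, SMURF2, ITCH and SMURF1. In MP2-α2Δ over MP2-mock cells, SMURF2 by 232020_at differed by 3.72 as deposited and 2.96 after quantile normalization. WWP1 by 212637_s_at differed by 3.50 and 2.71 on these scales. ITCH by 236235_at, which lay at 2.60 to 2.68 in the first set and at 5.74 and 5.29 in the second, differed by 3.06 and 2.46. SMURF1 by 232665_x_at, at 2.70 in the first set and at 5.40 and 4.86 in the second, differed by 2.70 and 2.13. Both the ITCH and the SMURF1 probe set read under 4 in the first set, and with a floor of 4 their differences were 1.74 and 1.4. The MP2-α9α2 values for these probe sets were 3.73 and 2.98 for SMURF2, 3.57 and 2.80 for WWP1, 2.61 and 2.13 for ITCH, and 2.15 and 1.72 for SMURF1 (0.86 with a floor of 4), and they share the MP2-mock array. Other probe sets of the same genes moved less, such as 209744_x_at of ITCH at -0.06 as deposited and -0.77 after quantile normalization in MP2-α2Δ over MP2-mock cells.

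Partners and substrates of the family were read through 7 lists of 134 genes, of which 114 had a probe set of their own. None of their probe sets was at least 2-fold higher in either α2 population than in MP2-mock cells. Over all probe sets tested, 0.214% (MP2-α2/TC) and 0.236% (MP2-α2/CI) were higher. Of 255 above the floor, 3 (1.18%) were lower in MP2-α2/TC cells, beside 0.248% of all probe sets. For MP2-α2/CI cells 2 of 251 (0.80%) were lower, beside 0.256%. Between the α2 populations 0 of 255 reached 2-fold, beside 0.138% of all probe sets. In MP2-α2Δ over MP2-α9α2 cells 12 of 250 (4.8%) were higher and 21 (8.4%) lower, beside 7.56% and 4.95% of all probe sets.

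PRRG4, a membrane protein with PY motifs, was the adaptor that stood apart in the first set, opposite in direction to NEDD4L. Its probe set 207291_at read 11.46 in MP2-mock, 9.74 for MP2-α2/TC, then 9.95 for MP2-α2/CI cells, and 12.17 and 9.57 on the MP2-α2Δ and MP2-α9α2 arrays. The differences were -1.72 and -1.51 for the α2 populations over MP2-mock and 2.59 for MP2-α2Δ over MP2-α9α2. Its other probe set, 238513_at, gave -1.17, -0.90 and 1.5 for the same pairs. Of 18 adaptor genes above the floor, MP2-α2Δ cells had 3 at least 2-fold higher and 3 lower than MP2-α9α2 cells. By probe set these were 4 and 5 of 38, beside 7.56% and 4.95% of all probe sets. Beside PRRG4, the higher genes were PMEPA1, a membrane adaptor that curbs SMAD signalling, at 1.21 for 1 of its probe sets, and WBP2, a WW-domain binding cofactor, at 1.04. AMOTL1, a junction scaffold, was lower, with differences of -2.29 and -1.44 in 2 probe sets, as were the insulin receptor adaptor GRB10, at -1.96 and -1.02, and WBP1L, a WW-domain binding protein, at -1.55.

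NDFIP1 and NDFIP2, which recruit and activate the ligases on endosomes, stayed under 2-fold in all pairs within a set. NDFIP1 by 222423_at read 9.43 in MP2-mock, 9.64 for MP2-α2/TC, then 9.88 for MP2-α2/CI cells, and 10.80 and 11.68 in MP2-α2Δ and MP2-α9α2 cells. Its 222422_s_at went the other way in the second set, at 10.09 and 9.11. NDFIP2 by 224802_at read 9.60, 9.79 and 9.95 in the first set and 10.10 and 10.23 in the second.

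SGK1, the kinase that restrains NEDD4L, read 13.88 in MP2-mock, 13.89 for MP2-α2/TC, then 13.95 for MP2-α2/CI cells, and 14.83 and 15.10 in MP2-α2Δ and MP2-α9α2 cells. Across the first set this transcript was level. Whether SGK1 bears on the NEDD4L differences was not tested. Of 12 kinase and 14-3-3 genes above the floor in the first set, none reached 2-fold there, beside 0.138% to 0.492% of all probe sets. In the second set 1 of 13 did, PDPK1, which activates SGK and AKT kinases, at -1.16 for 221244_s_at in MP2-α2Δ over MP2-α9α2 cells. By probe set 0 of 37 were higher and 1 lower, beside 7.56% and 4.95% of all probe sets.

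Of the channel, transporter and receptor substrates, 11 of 22 measured genes lay above the floor. None reached 2-fold in the first set, beside 0.138% to 0.492% of all probe sets. SCNN1A, the α subunit of the epithelial sodium channel, read 5.87 in MP2-mock, 5.02 for MP2-α2/TC, then 5.87 for MP2-α2/CI cells by 203453_at. It read 10.18 and 9.05 in MP2-α2Δ and MP2-α9α2 cells, a difference of 1.12. In this pair NEDD4L was lower by 3 probe sets, while 241396_at and 236490_at differed by 0. A link between the transcripts was not tested. The potassium channel KCNQ1 (-1.14) and the chloride transporter CLCN5 (-1.02) were lower in MP2-α2Δ than MP2-α9α2 cells by 1 probe set each. Over this list 1 of 30 probe sets was higher and 2 lower, beside 7.56% and 4.95% of all probe sets.

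SMAD7, the adaptor that brings the SMURF ligases to their receptors, lay at the minimum on all 5 arrays. No SMAD pathway gene of the 14 above the floor reached 2-fold in the first set, where 0.138% to 0.492% of all probe sets did. RUNX2, a transcription factor degraded through the SMURF ligases, read 8.16 and 6.89 in MP2-α2Δ and MP2-α9α2 cells by 232231_at, and 3.01 on each of the first 3 arrays. The receptor TGFBR1 was lower in MP2-α2Δ than MP2-α9α2 cells by 224793_s_at (-1.06). In this pair 1 of 39 SMAD pathway probe sets was higher and 1 lower, beside 7.56% and 4.95% of all probe sets. Of 16 other intracellular substrates, 2 were higher, CFLAR, an inhibitor of caspase activation (2.07 and 1.13 in 2 of its probe sets), and JUN (1.62), and 2 were lower, the endocytic protein EPS15 (-1.21 and -1.07) and the small GTPase RAP2A (-1.13 and -1.08). By probe set 3 of 46 were higher and 4 lower, beside the same shares of all. The 10 further CFLAR probe sets with signal lay between 0 and 0.43 in that pair.

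Among 9 E2 enzymes and deubiquitinases, none reached 2-fold in the first set, beside 0.138% to 0.492% of all probe sets. UBE2D4 (1.56) and UBE2E1 (1.21), ubiquitin-conjugating enzymes, and the deubiquitinase USP9X (1.27) were higher in MP2-α2Δ than MP2-α9α2 cells by 1 probe set each, and UBE2E2 was lower (-1.21). These were 3 higher and 1 lower of 20 probe sets, beside 7.56% and 4.95% of all probe sets. The 16 HECT ligases outside the family included HERC5, the ligase of the ubiquitin-like protein ISG15, which read 5.74 in MP2-mock, 3.98 for MP2-α2/TC, then 4.67 for MP2-α2/CI cells. In the second set 3 of them were lower in MP2-α2Δ than MP2-α9α2 cells and none higher. By probe set 7 of 40 were lower and 0 higher, beside 4.95% and 7.56% of all probe sets. The 3 genes follow. These were HECTD2 (-1.71 and -1.42), TRIP12 (-1.05) and HERC4, whose 4 probe sets past 2-fold lay between -1.07 and -1.28. The median over this list was -0.23, against 0 over all probe sets tested.

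**Figure D4:**
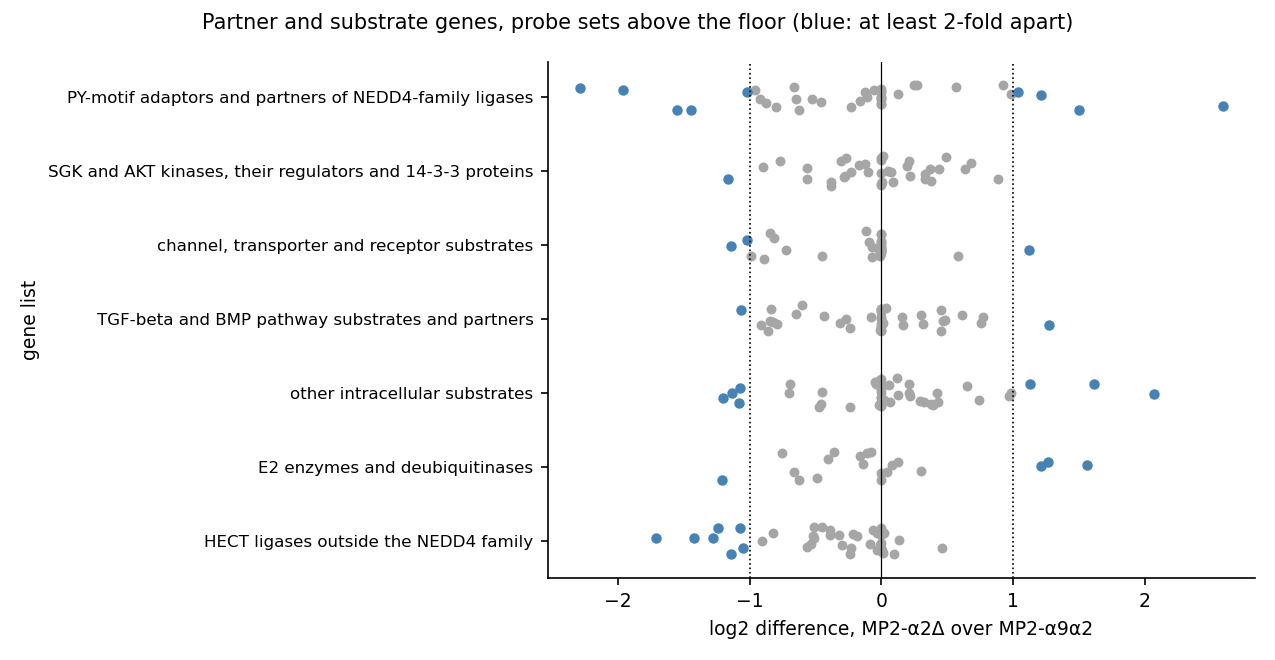
Log2 differences of MP2-α2Δ over MP2-α9α2 cells (x axis) for the 250 probe sets of the 7 gene lists that lay above the floor (y axis, 1 row per list, points spread for visibility), in blue where at least 2-fold apart, with 2-fold dotted. The HECT ligases outside the family have 7 of 40 probe sets past 2-fold, all lower, beside 4.95% lower over all probe sets. The adaptors extend both ways from -2.29 to 2.59.

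The genes whose pattern over the 5 arrays was most like that of NEDD4L 241396_at were ranked by the root mean square difference of centred log2 values among 26695 probe sets. They were RASAL2, a Ras GTPase-activating protein, at 0.24, GDF15, a stress-induced cytokine, at 0.40, MYO10, a filopodial myosin, at 0.44, CHST1, a sulfotransferase, at 0.52, and TOP1, a topoisomerase, at 0.58. RASAL2 by 234343_s_at read 5.15 in MP2-mock, 6.72 for MP2-α2/TC, then 6.40 for MP2-α2/CI cells and lay at the minimum on the other arrays. With 212445_s_at as the pattern, a reference chosen after its values were seen, the nearest gene was DDR2, a collagen receptor tyrosine kinase, at 0.54. DDR2 read 7.94, 9.29, 9.45, 7.45 and 9.0 in the order of the arrays above. The 2 NEDD4L probe sets had no gene in common among their 5 nearest. This likeness rests on 5 arrays in 2 sets and includes the shift between the sets.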

How the data were processed

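Human MIAPaCa2 populations were profiled on 5 Affymetrix arrays, 1 per population, with 54675 probe sets each. The authors deposited 1 value per probe set, on a scale read here as log2 from its range. GCRMA and MAS5 are listed in the submitters' processing notes, with neither their roles nor their versions. No scanner files were used here, and signal above background is known only through the floor described. After 62 control probe sets were left out, 41091 had 1 gene symbol, 1801 several and 11721 none, from the platform annotation. Of those with 1 symbol, 41037 were matched by gene ID to a current symbol.

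Differences were taken between values raised to the floor of each array, for probe sets above it on either array, in 7 pairs, with 2-fold as the limit. Alternatives were no floor, a floor of 4, centred arrays, quantile normalization, limits of 1.5-fold and 3-fold, omission of probe sets ending in _x_at or _s_at, and 1 probe set per gene. No comparison had replicates. The members and gene lists were chosen with earlier results of these data known. Named were all members, in each list up to 3 genes per direction at least 2-fold apart within a set, 5 genes regardless of value (SGK1, NDFIP1, NDFIP2, SCNN1A and SMAD7; a further one is not reported here), and the 5 genes of nearest pattern. Scripts were tested on simulated data and run with Python 3.11.15, pandas 2.3.3, numpy 2.4.6 and matplotlib 3.10.9.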

Additional observations from a re-analysis of the deposited data

How the results depend on the processing

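With 1 array per population, no value has an error, and probe sets of 1 gene share an array and are not replicates. No paired analysis was possible because each population had 1 array. Values repeated within 1e-06 between arrays of a set: of the probe sets above the floor on both arrays, 50.5% were identical in MP2-α2/TC and MP2-mock (9 of 29 members), 44.3% in MP2-α2/CI and MP2-mock (6 of 28), 50.9% in the α2 populations (11 of 28) and 30.3% in MP2-α2Δ and MP2-α9α2 (7 of 27). How these came about was not tested, so a difference of 0 may not be a measured equality. Of the member probe sets, 10 have IDs ending in _s_at or _x_at, which can read several transcripts.

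Within the first set, the counts of 3 higher member probe sets over MP2-mock became 6 in both α2 populations at 1.5-fold, 1 in MP2-α2/CI at 3-fold, and 1 in each with 1 probe set per gene. At 1.5-fold 1 was lower in MP2-α2/CI than in MP2-α2/TC cells. The 4 lower in MP2-α2Δ than MP2-α9α2 cells became 1 with 1 probe set per gene, where the median difference was -0.39.

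For MP2-α2Δ over MP2-mock, where 10 were higher and 3 lower with a median of 0.62, 6 were higher after centring and after quantile normalization, and 2 with 1 probe set per gene. Lower were 5 after centring, 1 at 3-fold and 1 with 1 probe set per gene. The median was 0.46 with no floor, 0.73 with a floor of 4 and 0.52 without _x_at and _s_at, and reversed to -0.22 centred and -0.018 after quantile normalization. For MP2-α9α2 over MP2-mock, with 16 higher, 1 lower and a median of 1.06, the higher were 9 centred, 10 after quantile normalization, 10 at 3-fold and 6 with 1 probe set per gene. The lower were 0 with a floor of 4, 2 centred and 0 with 1 probe set per gene. The median was 0.63 with no floor, 1.29 with a floor of 4, 0.25 centred, 0.48 after quantile normalization, 1.34 without _x_at and _s_at and 1.29 with 1 probe set per gene. For MP2-α2Δ over MP2-α2/CI, with 8 higher, 3 lower and a median of 0.64, the higher were 14 at 1.5-fold, 5 without _x_at and _s_at and 2 with 1 probe set per gene, and the lower 5 centred and 1 with 1 probe set per gene. The median was 0.44 with no floor, 0.76 with a floor of 4, 0.071 after quantile normalization, 0.50 without _x_at and _s_at and 0.51 with 1 probe set per gene, and reversed to -0.19 centred.

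Of the list probe sets 2-fold apart, the 3 in MP2-α2/TC over MP2-mock became 7 at 1.5-fold. The 2 in MP2-α2/CI over MP2-mock became 4 after quantile normalization, 8 at 1.5-fold, 0 at 3-fold and 1 with 1 probe set per gene. The 0 between the α2 populations became 5 at 1.5-fold. The 33 in MP2-α2Δ over MP2-α9α2 became 75 at 1.5-fold, 6 at 3-fold and 15 with 1 probe set per gene. Across the sets, the 97 in MP2-α2Δ over MP2-mock became 47 at 3-fold, 60 without _x_at and _s_at and 33 with 1 probe set per gene. The 123 in MP2-α9α2 over MP2-mock became 70, 78 and 45 under these settings, and the 94 in MP2-α2Δ over MP2-α2/CI became 42, 57 and 33, with 150 at 1.5-fold. The smaller counts with 1 probe set per gene and without _x_at and _s_at come from fewer probe sets, and the other causes were not tested. No member difference of 2-fold or more changed sign under the floor and scaling alternatives, but with a floor of 4 some no longer reached 2-fold. These were NEDD4L 226974_at in both α2 populations over MP2-mock (no value above 4, which left 2 of 3 higher) and in MP2-α2Δ over MP2-mock (1.88 to 0.27), NEDD4L 241396_at in MP2-α2Δ and in MP2-α9α2 over MP2-mock (-2.28 to -0.56), and SMURF1 232665_x_at in MP2-α9α2 over MP2-mock (2.15 to 0.86). Centring and quantile normalization ended other calls across the sets, as their counts show, and none within a set.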
